A study of Mus musculus with 6 samples.

Results

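RNA-Seq values of 10 genes of the interleukin-1 (IL-1) family were examined in CX3CR1-EGFP+ osteoclast precursors from LPS-injected mice treated with JAK inhibitor or vehicle. The genes were chosen by symbol, with earlier results of these data known, and all 10 were found among the 24346 symbols of the tables. They are 4 agonists (*Il1a*, *Il1b*, *Il1f9* and *Il18*), 3 antagonists or decoys (*Il1rn*, *Il1r2* and *Il18bp*), the signaling receptor *Il1r1* with its accessory chain *Il1rap*, and *Casp1*, the gene of the caspase that matures pro-IL-1β and pro-IL-18. All 6 mice were CX3CR1-EGFP knock-in mice, in which the *Cx3cr1* promoter drives EGFP, and LPS at 20 mg/kg was placed in the periosteum of the calvaria of each. Over 5 days, 3 mice took the JAK1-selective inhibitor ABT-317 by mouth at 60 mg/kg, in 2 doses per day, and vehicle was given to the other 3. Bone marrow cells were pressed from the calvaria and sorted on EGFP alone, so any marrow cell that carries the reporter could enter the sample. Mice without LPS were not part of the comparison, and the sources used here give no age for these 6 mice. Values are FPKM (fragments scaled by transcript length and by the mapped reads of the library), so levels can be compared between genes.

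IL-1α and IL-1β signal through IL-1R1 together with IL-1RAcP, the product of *Il1rap*, and IL-36γ (the product of *Il1f9*) signals through IL1RL2 with the same accessory chain. IL-18 uses its own receptor pair. The family is restrained at several levels: IL-1Ra (*Il1rn*) occupies IL-1R1 without signaling, IL-1R2 (*Il1r2*) binds IL-1 but lacks a signaling domain, and IL-18BP (*Il18bp*) captures soluble IL-18. In inflamed bone, IL-1 is known to promote osteoclast formation and activity. None of these receptors recruits a JAK kinase. They signal through MyD88 and NF-κB.

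Promoter sequences are shown for the members on which the results turn. They are RefSeq windows on GRCm38.p6, and all 10 members had at least 1 window, 13 windows in all. In the 250 bases before each start, 3 motifs were searched on both strands: TTCNNNGAA for STAT factors, GGG followed after any 5 bases by CC for NF-κB and TTGCNNAA for C/EBP factors. The STAT letters were found in 2 of the 13 windows of members, those of *Il1f9* and *Il1r2*, and in 7.02% of all 32851 windows. The C/EBP letters were found in 2 windows of members, those of *Il18bp* and of 1 start of *Il1r1*, and in 9.56% of all windows. The NF-κB letters, which are loose, were found in 5 windows of members and in 45.8% of all windows. No window of a member held matches of different motifs. The upstream sequence of *Il1f9*, the member with the smallest p between the groups, is given with the STAT letters in capitals, beside that of *Il1b*, the most abundant agonist, in which none of the 3 motifs was found. Both run 5′ to 3′ on the strand of the gene.
Il1f9 (chr2:24186226-24186475, plus strand): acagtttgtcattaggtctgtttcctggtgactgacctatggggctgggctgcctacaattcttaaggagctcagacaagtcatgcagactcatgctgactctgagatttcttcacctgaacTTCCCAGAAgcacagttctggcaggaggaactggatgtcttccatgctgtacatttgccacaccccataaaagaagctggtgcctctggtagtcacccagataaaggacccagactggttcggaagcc
Il1b (chr2:129371140-129371389, minus strand): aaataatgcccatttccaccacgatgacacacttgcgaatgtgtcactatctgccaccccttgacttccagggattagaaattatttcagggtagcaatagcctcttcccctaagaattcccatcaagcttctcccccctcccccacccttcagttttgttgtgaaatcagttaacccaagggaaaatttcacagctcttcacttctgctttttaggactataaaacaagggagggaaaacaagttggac
For *Il1r2* and *Il18bp*, 2 antagonists with large differences, a short stretch around the match is given in the same way. GENCODE M21 places exons of the same gene over both stretches, so these starts lie inside the longer annotated genes.
Il1r2 (chr1:40085972-40086000, plus strand, STAT letters in capitals): cgggtgctttTTCAAGGAActtccgacta
Il18bp (chr7:102018264-102018291, minus strand, C/EBP letters in capitals): ggagccagtgTTGCGGAAgtgccttcct
A match describes the letters of the window and is no evidence of binding.

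The FPKM summed to between 688372 and 775790 per mouse. Read depth is unknown, since FPKM hold no counts. Monocyte markers were present in every mouse, among them *Lyz2* at 23900 to 32890 FPKM, *Ly6c2* at 2751 to 4617 and *Csf1r* at 355 to 422. The sum of the 9 monocyte and osteoclast precursor markers, most of it from *Lyz2*, overlapped between the groups. Of the 9, 2 had groups apart, both lower with JAK inhibitor: *Cd14* (104, 67.8 and 132 FPKM with vehicle, 66.2, 41.5 and 58.3 with JAK inhibitor) and *Fcgr1* (6.74, 6.60 and 12.2 with vehicle, 3.47, 3.21 and 2.73 with JAK inhibitor), which are named after their values were seen. Of the 11301 genes with at least 1 FPKM in at least 1 mouse, groups were apart and lower with JAK inhibitor for 12.1%. They were apart and higher for 9.92%. *Cx3cr1* itself was at 15.5 to 36.1 FPKM, lowest in vehicle-treated mouse 3. Vehicle-treated mouse 3 stood apart from the other libraries in several lists. Its 9 mature neutrophil markers summed to 20195 FPKM, beside 10030 and 13461 in vehicle-treated mice 2 and 1 and 6582 to 13413 in JAK inhibitor-treated mice, and its 6 osteoclast markers summed to 576 FPKM against 166 and 258 with vehicle and 107 to 112 with JAK inhibitor. Of the 6 osteoclast markers, 5 were tested, and all 5 had groups apart and lower with JAK inhibitor. Of these 5, 2 passed the filter of 1 FPKM only through vehicle-treated mice. The 10 macrophage markers summed to 714 to 870 FPKM with vehicle and 527 to 661 with JAK inhibitor. The largest part came from *Cd68*, whose groups overlapped. Groups were apart for 2 of the 10, *C1qb* and *Mertk*, both lower with JAK inhibitor. *Vcam1* was higher on average, with overlapping groups. *Mertk* and *Vcam1* are named after their values were seen. The sum of the 8 neutrophil progenitor markers overlapped while single genes differed in opposite directions, with groups apart and higher with JAK inhibitor for 4 (*Elane*, *Mpo*, *Prtn3* and *Camp*, 1.35-fold to 3.25-fold in the means) and lower for 1 (*Chil3*, 2.60-fold). Sums of the 5 dendritic cell, 5 mast cell and basophil, 6 B cell, and 6 stromal and endothelial markers overlapped between the groups. The sum of the 5 erythroid markers was higher with JAK inhibitor (6.09 to 51.1 against 0.69 to 2.77). So was that of the 5 T and NK cell markers (491 to 560 against 170 to 365), nearly all from *Nkg7*. Of the 4 tested T and NK cell markers, 2 were lower and 2 higher, and *Nkg7* alone had groups apart. *Ms4a1*, *Ebf1* and *Pax5* were listed at 0 in every mouse, and *Cd3e* was below 0.4. The basophil protease genes *Prss34* (923 to 2338 FPKM) and *Mcpt8* (463 to 1130) were present in all mice. In these bulk samples, fewer cells of a type and less RNA per cell cannot be told apart, and the part of any of these cell types in the results below was not tested.

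The comparison between JAK inhibitor- and vehicle-treated mice asks how the balance of IL-1 family agonists and antagonists in osteoclast precursors differed with JAK1 inhibition. *Il1f9* fell to 0.431 of its vehicle level and was the only member past an adjusted p of 0.05. All 3 antagonists were at their highest in vehicle-treated mice, with groups that did not overlap. *Il1b* and *Il18* were lower on average by less than 1.4-fold with overlapping groups, and *Casp1* was slightly higher. Differences were tested with limma on log2(FPKM + 1) over the 11301 genes with at least 1 FPKM in at least 1 mouse, and fold changes are on that scale, which understates those of low genes. Of the 10 members, 9 were tested. *Il18bp* and *Il1r1* passed the filter only through vehicle-treated mice, so counts over the tested members lean toward lower values.

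The members were chosen with earlier results of these data known, so the counts that follow are no independent evidence. Among the members, 1 was lower and 0 were higher at an adjusted p under 0.05, against 0.0973% and 0.0354% of all tested genes. At an unadjusted p under 0.05, 5 members were lower (*Il1b*, *Il1f9*, *Il1rn*, *Il1r2* and *Il18bp*), against 9.4% of all tested genes, and 1 was higher (*Casp1*), against 6.57%. Groups without overlap were found for 4 lower members (*Il1f9*, *Il1rn*, *Il1r2* and *Il18bp*), against 12.1% of all tested genes, and for 1 higher member (*Casp1*), against 9.92%. Vehicle-treated mouse 3 held the highest value of 7 of the 10 members, against 25.3% of all tested genes. Without that mouse, 4 members were lower at an unadjusted p under 0.05 and *Il1b* was no longer among them.

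**Figure D1:**
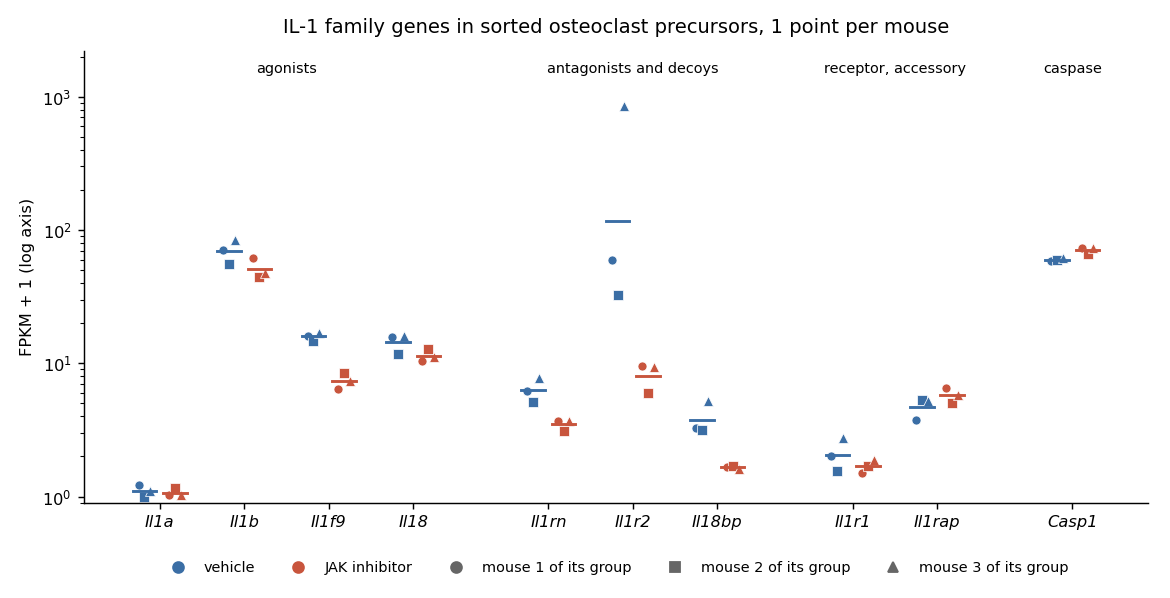
FPKM + 1 on a log axis for the 10 members in each of the 6 mice, with vehicle in blue and JAK inhibitor in red, the symbol giving the mouse number within its group and the line the geometric mean of FPKM + 1. The groups are apart for Il1f9, Il1rn, Il1r2, Il18bp and Casp1, and Il1r2 reaches 846 FPKM in vehicle-treated mouse 3.

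Of the agonists, *Il1b*, the main secreted IL-1 of myeloid cells, had the highest level. *Il1b* (chromosome 2, 129364570 to 129371139, GENCODE M21 on GRCm38) was at 70.0, 54.3 and 83.8 FPKM in vehicle-treated mice 1 to 3 and at 60.5, 43.5 and 46.3 FPKM in JAK inhibitor-treated mice 1 to 3. JAK inhibitor-treated mouse 1 lay above vehicle-treated mouse 2, so the groups overlapped. The means were 69.4 ± 14.8 (SD, n = 3) and 50.1 ± 9.09 (SD, n = 3), a log2 fold change of -0.45 ± 0.17 (SE, limma adjusted p = 0.254). The *Il1b* transcript made up 68.9% to 80.3% of the summed FPKM of the 4 agonists in every mouse. *Il1a*, the membrane-associated and intracellular IL-1, was close to undetected, at 0.229, 0 and 0.109 FPKM with vehicle and 0.028, 0.16 and 0.026 FPKM with JAK inhibitor, and was not tested.

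*Il1f9* (chromosome 2, 24186476 to 24193568), whose product IL-36γ acts on epithelial and myeloid cells, was at 15.0, 13.8 and 16.0 FPKM in vehicle-treated mice and at 5.45, 7.42 and 6.42 FPKM in JAK inhibitor-treated mice. Each group was tight, and the lowest vehicle-treated mouse was well above the highest JAK inhibitor-treated mouse. The log2 fold change of *Il1f9* was -1.11 ± 0.15 (SE, 95% confidence interval -1.44 to -0.78, limma adjusted p = 0.0324), from 14.9 ± 1.12 (SD, n = 3) to 6.43 ± 0.985 (SD, n = 3). An exact permutation test (2-sided) could reach no less than p = 0.1 with 3 mice in each group, and *Il1f9* was at that limit. The fold change ranged from -1.21 to -1.01 over the alternatives, but the adjusted p rose above 0.05 whenever 1 mouse was left out (0.0566 to 0.229, limma). It was 0.197 without the filter on low values and 0.0776 without the trend. At the promoter shown above, the STAT letters of *Il1f9* begin 128 bases before the start.

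*Il18*, a caspase-1 substrate that promotes interferon-γ production, was at 14.8, 10.8 and 15.1 FPKM with vehicle and at 9.38, 11.9 and 10.2 FPKM with JAK inhibitor. The ranges overlapped at vehicle-treated mouse 2. The means were 13.6 ± 2.40 (SD, n = 3) and 10.5 ± 1.27 (SD, n = 3), and the log2 fold change was -0.33 ± 0.16 (SE, limma adjusted p = 0.355). *Il18* lies on chromosome 9 from 50554827 to 50581840.

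Of the antagonists, *Il1r2* (chromosome 1, 40074079 to 40125231), the decoy receptor, had the largest difference and the largest spread of any member. It was at 58.4, 31.5 and 846 FPKM in vehicle-treated mice and at 8.56, 4.96 and 8.31 FPKM in JAK inhibitor-treated mice. Every vehicle-treated mouse was above every JAK inhibitor-treated mouse, and vehicle-treated mouse 3 was far above the other vehicle-treated mice. Of all tested genes, 1.19% had a higher FPKM than *Il1r2* in that mouse, beside 17.5% and 27.7% in vehicle-treated mice 1 and 2 and 56.5% to 68.4% in JAK inhibitor-treated mice. The log2 fold change was -3.86 ± 0.98 (SE, 95% confidence interval -6.09 to -1.63, limma adjusted p = 0.13). Without vehicle-treated mouse 3 it was -2.44 ± 0.30 (SE, limma adjusted p = 0.0424), so that *Il1r2* passed the threshold that *Il1f9* then missed. *Il1r2* is a gene of mature neutrophils and monocytes, and mouse 3 also had the highest sum of mature neutrophil markers. Most of that sum came from *S100a8* (15469 FPKM in vehicle-treated mouse 3). *Mmp8* and *Cxcr2* were also highest in that mouse, whereas *Csf3r* was lowest there. Of the 9 mature neutrophil markers, 2 had groups apart in the direction of *Il1r2*, 2 had groups apart in the other direction and the rest overlapped. Over all tested genes, groups were apart and lower for 12.1% and apart and higher for 9.92%. The lower markers were *Mmp8* (189, 200 and 356 FPKM with vehicle, 110, 94.9 and 139 with JAK inhibitor) and *Cxcr2* (6.38, 5.98 and 11.5 with vehicle, 4.58, 4.55 and 2.96 with JAK inhibitor). The higher markers were *Cd177* (23.5, 31.6 and 27.2 with vehicle, 51.8, 37.6 and 50.9 with JAK inhibitor) and *Csf3r* (51.3, 51.9 and 44.1 with vehicle, 55.0, 56.2 and 56.9 with JAK inhibitor). These 4 marker genes were singled out after their values were seen. The sum of the 6 osteoclast markers was also highest in vehicle-treated mouse 3 (576 FPKM). All 5 tested osteoclast markers had groups apart in the direction of *Il1r2*, and 2 of them passed the filter only through vehicle-treated mice. The part of either cell type in the *Il1r2* values was not tested. The antisense gene *Gm16894*, which overlaps *Il1r2*, was at 0.737 to 2.91 FPKM with vehicle and 0.078 to 0.65 FPKM with JAK inhibitor, and reads of the pair may not be separable, since the labels and the methods name different library kits.

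*Il1rn* (chromosome 2, 24336853 to 24351494), the receptor antagonist, was at 5.15, 4.09 and 6.81 FPKM in vehicle-treated mice and at 2.70, 2.13 and 2.72 FPKM in JAK inhibitor-treated mice. The groups did not overlap. From 5.35 ± 1.37 (SD, n = 3) with vehicle to 2.51 ± 0.337 (SD, n = 3) with JAK inhibitor, the log2 fold change was -0.84 ± 0.20 (SE, limma adjusted p = 0.118). *Il18bp* (chromosome 7, 102014885 to 102018690), the soluble IL-18 trap, was at 2.29, 2.18 and 4.17 FPKM with vehicle and at 0.675, 0.696 and 0.62 FPKM with JAK inhibitor. All JAK inhibitor-treated mice were below 1 FPKM and nearly equal, and all vehicle-treated mice were above 2 FPKM. Its log2 fold change was -1.19 ± 0.24 (SE, limma adjusted p = 0.104), and -1.91 with a pseudocount of 0.1. *Il18bp* overlaps *Numa1* on the opposite strand, which was at 8.49 to 14.0 FPKM with overlapping groups. Reads of this pair too may not be separable, since the labels and the methods name different library kits. For *Il1rn*, *Il1r2* and *Il18bp* alike, the exact 2-sided permutation test of 3 against 3 mice gave the smallest possible p of 0.1, and the adjusted p in limma stayed above 0.05 with all 6 mice.

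**Figure D2:**
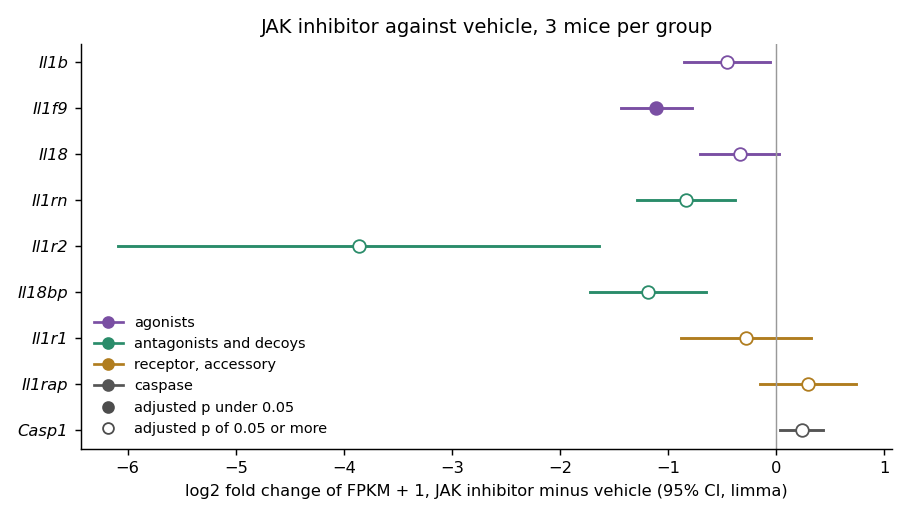
Log2 fold change of FPKM + 1 (JAK inhibitor minus vehicle) with the 95% confidence interval from limma for the 9 tested members, colored by role, with a filled point for an adjusted p under 0.05. Il1f9, at -1.11, is the filled point, and Il1r2, at -3.86, has the widest interval.

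The receptor chains had low levels, and their groups overlapped. *Il1r1* (chromosome 1, 40225080 to 40317257), the signaling receptor for IL-1, was at 1.02, 0.543 and 1.75 FPKM with vehicle and at 0.51, 0.688 and 0.873 FPKM with JAK inhibitor, and the groups overlapped. Its log2 fold change was -0.28 ± 0.27 (SE, limma adjusted p = 0.652), and -0.07 without vehicle-treated mouse 3. *Il1rap* (chromosome 16, 26581704 to 26730117), the accessory chain, was at 2.76, 4.31 and 4.21 FPKM with vehicle and at 5.56, 4.05 and 4.76 FPKM with JAK inhibitor. JAK inhibitor-treated mouse 2 lay within the vehicle range, and the log2 fold change was 0.29 ± 0.20 (SE, limma adjusted p = 0.513). Without vehicle-treated mouse 1 it was 0.13. *Casp1* (chromosome 9, 5298517 to 5307265), the converting caspase, was at 57.8, 58.6 and 60.8 FPKM with vehicle and at 71.8, 65.4 and 72.3 FPKM with JAK inhibitor. The groups did not overlap, with the JAK inhibitor-treated mice higher by 1.18-fold in the means, which were 59.0 ± 1.55 and 69.9 ± 3.84 FPKM (SD, n = 3). The log2 fold change of *Casp1* was 0.24 ± 0.09 (SE, limma adjusted p = 0.239).

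Agonists and antagonists were then set side by side. The log2 differences of the 3 antagonists were -0.84 (*Il1rn*), -1.19 (*Il18bp*) and -3.86 (*Il1r2*), and those of the 4 agonists were -0.05 (*Il1a*), -0.33 (*Il18*), -0.45 (*Il1b*) and -1.11 (*Il1f9*), against a median of -0.0035 over all tested genes. *Il1f9* thus lay within the range of the antagonists, and *Il18bp* entered the test only through vehicle-treated mice. Each antagonist was divided by its agonist or receptor in the same mouse, with no test, since these are scores over chosen members. The FPKM of *Il1rn* was 0.0735, 0.0753 and 0.0812 of that of *Il1b* in vehicle-treated mice 1 to 3 and 0.0446, 0.0488 and 0.0587 in JAK inhibitor-treated mice 1 to 3. The *Il1rn* transcript was thus scarcer than that of *Il1b* in every mouse, and the 2 groups of ratios did not overlap. These are transcript values, and the proteins of the members were not measured.

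The *Il18bp* to *Il18* ratio was 0.155, 0.202 and 0.277 with vehicle and 0.072, 0.0586 and 0.0608 with JAK inhibitor, again without overlap. The decoy *Il1r2* exceeded the signaling receptor *Il1r1* by 57.4, 58.0 and 484 times with vehicle and by 16.8, 7.20 and 9.52 times with JAK inhibitor. So the decoy transcript remained more abundant than that of the signaling receptor in all 6 mice. However, *Il1r1* was near 1 FPKM throughout and its ratio is imprecise. On the log2(FPKM + 1) scale the differences between the groups were -0.38 for *Il1rn* to *Il1b*, -0.85 for *Il18bp* to *Il18* and -3.58 for *Il1r2* to *Il1r1*, the last of which was -2.37 without vehicle-treated mouse 3. Summed over the 3 antagonists, the FPKM was 65.8, 37.8 and 857 with vehicle and 11.9, 7.78 and 11.6 with JAK inhibitor, most of it from *Il1r2*. The summed FPKM of the 4 agonists was 100.1, 78.9 and 115 with vehicle and 75.3, 63.0 and 62.9 with JAK inhibitor.

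**Figure D3:**
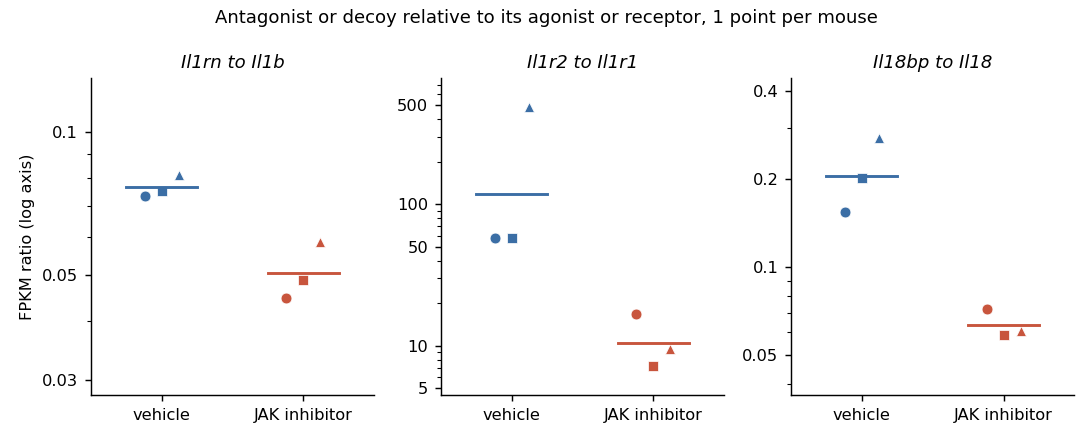
FPKM ratio of an antagonist or decoy to its agonist or receptor in each mouse on log axes, with vehicle in blue, JAK inhibitor in red, the symbol giving the mouse number within its group and the line the geometric mean. In each of the 3 ratios every vehicle-treated mouse lies above every JAK inhibitor-treated mouse, and the Il1r2 to Il1r1 ratio of vehicle-treated mouse 3 is 484.

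The dependence on single mice differed between the members. With each mouse left out in turn, no tested member changed the sign of its difference. The range was -4.79 to -2.44 for *Il1r2*, the widest of all, and -1.20 to -1.01 for *Il1f9*. For *Il1b*, *Il18*, *Il1rn*, *Il1r2*, *Il18bp* and *Il1r1*, the value nearest 0 was the one without vehicle-treated mouse 3.

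**Figure D4:**
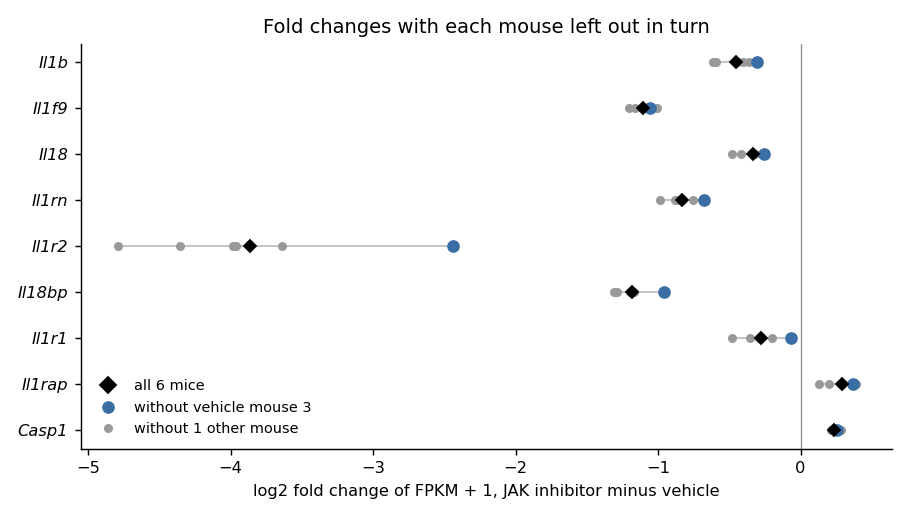
Log2 fold change of FPKM + 1 (JAK inhibitor minus vehicle) for the 9 tested members with all 6 mice (black diamond), without vehicle-treated mouse 3 (blue) and without each other mouse (grey). The Il1r2 value moves from -3.86 to -2.44 without vehicle-treated mouse 3, whereas that of Il1f9 stays between -1.20 and -1.01.

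The other genes of the IL-1 family were read from a written list of 16 symbols, of which 12 were in the tables and 5 were tested. The symbols not found, *Il36rn*, *Il36a*, *Il36b* and *Il36g*, are other names of *Il1f5*, *Il1f6*, *Il1f8* and the member *Il1f9*, which were found. *Il33*, *Il1f5*, *Il1f6* and *Il1f10*, ligands of the family, were listed at 0 in every mouse, and *Il1f8* did not exceed 0.04 FPKM, so *Il1f9* was the only IL-36 ligand at a measurable level. None of the 5 tested genes passed an adjusted p of 0.05 in limma, and 4 of them were lower with JAK inhibitor. At an unadjusted p under 0.05, 2 were lower, against 9.4% of all tested genes. These 2 were *Il1rl2*, the receptor of IL-36γ, with 5.61, 6.78 and 7.80 FPKM with vehicle and 4.45, 5.49 and 3.68 with JAK inhibitor (-0.48 on the log2 scale, limma adjusted p = 0.249), and *Il18rap*, the IL-18 accessory receptor, with 5.93, 5.82 and 14.9 FPKM with vehicle and 3.74, 4.28 and 2.90 with JAK inhibitor (-0.98, adjusted p = 0.191 in limma). Groups were apart and lower for 3 of the 5 tested genes, these 2 and *Il1rl1*, against 12.1% of all tested genes. *Il1r2*, *Il1r1*, *Il1rl2*, *Il1rl1*, *Il18r1* and *Il18rap* lie in this order on the plus strand of chromosome 1 between 40074079 and 40551705, and the difference was below 0 for each of the 6, as it was for 50.6% of all tested genes. *Il1r1* and *Il18r1* passed the filter only through vehicle-treated mice, and their groups overlapped. *Il1rl1* (-0.32) and *Il18r1* (-0.54), which encode the IL-33 receptor and the IL-18 receptor, are named here after their values were seen. *Sigirr*, an inhibitory receptor of the family, was also named after its values were seen, with overlapping groups and a log2 fold change of 0.05.

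The inflammasome and processing genes showed no common direction. Of 21 tested genes, 11 were lower and 10 higher, and none passed the adjusted threshold in limma. At an unadjusted p under 0.05, 1 was lower and 4 were higher, against 9.4% and 6.57% of all tested genes. The median log2 fold change was -0.00077. *Pycard*, the adaptor that recruits caspase-1, was at 142, 149 and 155 FPKM with vehicle and at 124, 104 and 128 FPKM with JAK inhibitor (-0.33, adjusted p = 0.183 in limma). It was lower in every JAK inhibitor-treated mouse, while *Casp1* was higher. *Naip5* (0.57) and *Naip6* (0.52), bacterial sensors that are close paralogs and may share reads, and the protease genes *Elane* (1.12) and *Prtn3* (0.47), whose products can cleave IL-1 family cytokines, were the 4 higher genes. *Elane* and *Prtn3* are also neutrophil progenitor markers, a list in which 4 genes were higher and 1 was lower at an unadjusted p under 0.05. The lower one, *Chil3*, which is also expressed by macrophages, is named after its values were seen and fell by 1.39 on the log2 scale (adjusted p = 0.0189 in limma). *Nlrp3*, the sensor of the main inflammasome, was named after its values were seen and had 1.54, 0.92 and 2.04 FPKM with vehicle and 1.28, 1.68 and 0.851 with JAK inhibitor, with overlapping groups.

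Of 18 tested MyD88 and IRAK signaling genes, 12 were lower and 6 higher, and none passed the adjusted threshold in limma. At an unadjusted p under 0.05, 3 were lower and 1 was higher, against 9.4% and 6.57% of all tested genes. The median log2 fold change was -0.04. *Irak3*, the inhibitory IRAK of macrophages, was at 70.2, 57.4 and 81.3 FPKM with vehicle and at 45.0, 45.3 and 48.2 FPKM with JAK inhibitor (-0.57, adjusted p = 0.113 in limma), without overlap. *Ecsit* (-0.45), *Myd88* (-0.34) and *Chuk* (0.32), an adaptor of TRAF6, the common adaptor and a kinase of the IκB complex, were the others. The list as a whole lay close to the median of all tested genes.

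Genes that IL-1 is known to induce through NF-κB had larger differences. The list was written with earlier results of these data known, so its direction is no independent evidence. All 6 mice also received LPS, and whether IL-1, LPS or another signal induced these genes here was not tested. Of its 11 tested genes, 10 were lower and 1 higher, none passed the adjusted threshold in limma, 6 were lower and 1 was higher at an unadjusted p under 0.05 (9.4% and 6.57% of all tested genes), and the median log2 fold change was -0.84. That median is the value of *Cxcl2*, which like *Nos2* passed the filter only through vehicle-treated mice. Of the 9 others, 8 were lower and 1 was higher, with a median of -0.96. *Saa3*, an acute-phase gene, was at 4090, 2221 and 12974 FPKM with vehicle and at 452, 249 and 550 FPKM with JAK inhibitor (-3.63, adjusted p = 0.0557 in limma). The siderophore-binding gene *Lcn2* (-1.66, adjusted p = 0.0665 in limma) also had every JAK inhibitor-treated mouse below every vehicle-treated mouse. *Tnfaip3*, which encodes the NF-κB inhibitor A20, was at 18.1, 14.2 and 21.7 FPKM with vehicle and at 7.02, 9.05 and 8.03 FPKM with JAK inhibitor (-1.06, adjusted p = 0.0665 in limma). *Nfkbia*, which encodes IκBα, was at 282, 322 and 467 FPKM with vehicle and at 179, 163 and 177 FPKM with JAK inhibitor (-1.01, adjusted p = 0.0688 in limma). Both genes had groups well apart. *Icam1*, an adhesion molecule, had a log2 fold change of -0.96 (adjusted p = 0.133 in limma). *Nfkbiz*, which encodes the nuclear cofactor IκBζ and is named after its values were seen, was the higher gene, at 8.98, 8.01 and 5.08 FPKM with vehicle and at 10.6, 9.74 and 11.3 FPKM with JAK inhibitor (0.49, adjusted p = 0.264 in limma). *Ptgs2* and *Cxcl1*, named after their values were seen, did not exceed 0.118 and 0.032 FPKM.

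**Figure D5:**
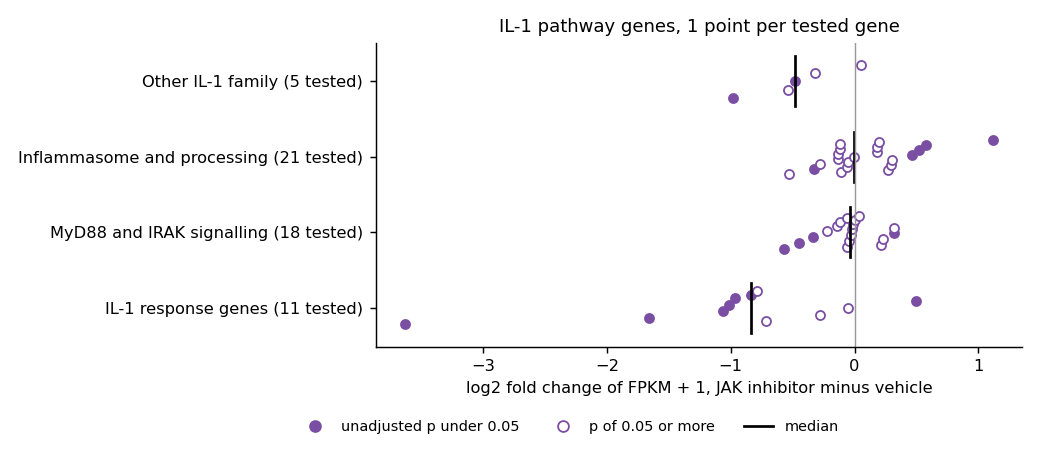
Log2 fold change of FPKM + 1 (JAK inhibitor minus vehicle) for each tested gene of 4 written lists, with filled points for an unadjusted p under 0.05 and a line at each list's median. The median is -0.84 for the IL-1 response genes, or -0.96 without the 2 that passed the filter only through vehicle-treated mice, and within 0.04 of 0 for the inflammasome and signaling lists.

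Across the 6 mice, the Pearson correlation of log2(FPKM + 1) was 0.97 between *Il1rn* and *Il18bp*, 0.96 between *Il1rn* and *Il1r2* and 0.95 between *Il1r2* and *Il18bp*. It was 0.94 between *Il1f9* and *Il18bp* and -0.94 between *Il1f9* and *Casp1*. It was smaller in size for the other pairs, such as 0.58 between *Il1f9* and *Il1r1*, 0.66 between *Il1b* and *Il18* and 0.66 between *Il1b* and *Il1f9*. These values are given as descriptions over 6 mice that share the difference between the groups and vehicle-treated mouse 3. The 5 other tested genes most like *Il1f9* were *Phf5a*, *G3bp2*, *Mrpl49*, *Relt* and *Cct3* (r = 0.989 to 0.998 over 6 mice), and 300 genes had r over 0.9. The 5 most like *Il1r2* were *Tarm1*, *Fuca1*, *P2ry13*, *Acadl* and *Cd101* (r = 0.994 to 0.997 over 6 mice), of which *Cd101* was at 3.24, 2.89 and 12.5 FPKM with vehicle and at 1.48, 0.783 and 1.03 FPKM with JAK inhibitor. *P2ry13*, a receptor for ADP, was at 10.6, 8.68 and 35.4 FPKM with vehicle and at 4.55, 4.57 and 5.13 FPKM with JAK inhibitor.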

How the data were processed

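RNA-Seq was performed on EGFP+ cells from the calvaria of 6 mice. For each mouse, the deposited table holds FPKM made by the authors. The submitters' processing notes name TopHat2 2.0.13, Bowtie2 2.2.3, SAMtools 0.1.19, Cufflinks 2.2.1 and mm10, and the annotation is not given in the sources used here. The methods name a stranded mRNA kit and iDEP, whereas the labels name a SMART-Seq HT and Nextera library. FPKM keep no depth, so no counting intervals are given. The members, lists and motifs were chosen with earlier results of these data known.

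Groups follow the sample titles, and the numbers 1 to 3 name mice and do not pair them. With limma 3.58.1 in R 4.3.3 (trend, Benjamini-Hochberg), log2(FPKM + 1) was compared over 11301 genes of at least 1 FPKM in at least 1 mouse. The script was tested on simulated data. All members were named, with up to 5 genes per pathway list with the smallest p under 0.05, the 5 genes most correlated with the members of smallest p and widest spread, and up to 3 of the highest markers per list; other genes are marked. Markers were summed per list. Alternatives were a pseudocount of 0.1, no filter or 1 FPKM in 3 mice, quantile or median ratio scaling, no trend, library weights, a replicate block and each mouse left out. Python 3.11.15, pandas 2.3.3, NumPy 2.4.6 and matplotlib 3.10.9 were used. Limma p-values set the difference of the group means against the spread between these mice, which limma moderates over all tested genes.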

Additional observations from a re-analysis of the deposited data

How the results depend on the processing

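No tested member changed direction under any of the alternatives run. *Il1f9* stayed past an adjusted p of 0.05 in limma with the other scalings, pseudocount, stricter filter, library weights and replicate block. It missed it with an unchanged log2 fold change of -1.11 without the filter and without the trend, which leaves 0 members called, and whichever mouse was left out (-1.20 to -1.01, with 0 to 1 members called). *Il1r2* passed it only without vehicle-treated mouse 3 (-2.44), and its range with 1 mouse left out was -4.79 to -2.44. The ratios kept their sign under the 9 alternatives run for each. A pseudocount of 0.1 moved the log2 ratio of *Il1rn* to *Il1b* to -0.58 and of *Il18bp* to *Il18* to -1.55. The count of all genes past the threshold, 15, was 2 without the filter and also without the trend, 34 with 1 FPKM in 3 mice, 63 with library weights and 1 to 25 with 1 mouse left out, outside 1.5 times the full count for every mouse but vehicle-treated mouse 2. The cause was not tested. With the replicate number as a block it was 67 and *Il1f9* was still the only member called, but same-numbered mice did not deviate together (r = 0.0158, 0.0542 and -0.00016) and not every mouse correlated best with its own number. Counts without vehicle-treated mouse 3 were added after the data were seen. The other scalings shifted the median of all tested genes by at most 0.02 on the log2 scale. Depth is unknown, so values below 1 FPKM, such as those of *Il1a*, *Il1r1* and *Il18bp*, carry an error that 3 mice per group measure only in part. Groups of 3 were not tested for outliers.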
